A study of Bubalus bubalis with 12 samples.

Results

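Probes named for 4 genes, DNAJB9, TXNDC5, SERP1 and LMAN2L, were described in buffalo bull spermatozoa through 2 histone marks, H3K4me2 and H3K27me3. The names belong to protein folding and traffic in the endoplasmic reticulum. Whether the TXNDC5-labelled probes code for TXNDC5 was not tested. The genes were taken by the gene name that the array files give to a probe, which returned 4 of 9328 symbols and 25 of the 177440 non-control probes, and all 25 passed the filter on dim probes. The 4 genes were chosen by their H3K4me2 difference between the fertility groups in an earlier look at these arrays, and DNAJB9 by its H3K27me3 difference too. Their H3K4me2 group differences, and that of DNAJB9 for H3K27me3, are therefore descriptions and carry no test.

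The subfertile group held bulls SF1, SF4 and SF5, and the high-fertile group held bulls HF2, HF3 and HF5. Cryopreserved semen was cross-linked, digested with micrococcal nuclease and precipitated with an antibody to either mark, and each precipitate was set against the input DNA of the same bull. This gave 12 arrays of Bubalus bubalis sperm, 1 for each bull and mark, with ChIP DNA in Cy5 and input DNA in Cy3 throughout and no swap of the dyes. The labels describe the groups by fertility class only, and age, breed and semen batch are not given in the sources used here. HF2, HF3, SF4 and SF5 each lay on a slide of their own, and only SF1 and HF5 shared one. Apart from that shared slide, fertility group and slide cannot be told apart. Values are log2 ratios of ChIP over input, centred on the median probe of each array, so that 0 is the median probe and 1 is a doubled ratio. A gene's value is the mean of its probes.

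In the endoplasmic reticulum, secreted and membrane proteins enter through the translocon, fold with the help of chaperones and disulphide isomerases, and leave for the Golgi on cargo receptors. When unfolded proteins accumulate, the unfolded protein response raises the chaperones and slows translation. During spermatogenesis this machinery serves the making of the acrosome and of surface proteins. Mature sperm are almost silent in transcription and have exchanged most histones for protamines, so a mark there describes the nucleosomes that remain. H3K4me2 is a mark of active or poised promoters, and H3K27me3 is the mark laid down by Polycomb complexes at repressed developmental genes.

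The probed windows were short, and their sequences are shown because the group differences sat in single stretches of them. Positions are those of the cattle build HGSC Btau_3.1, on which the array was designed. The bases and CpG counts are those of the cattle probes, to which buffalo DNA was hybridized. Mismatches between the species, or between bulls, were not examined. Where probes overlapped, they were joined, since the shared bases were identical, and the joined stretch reads in the direction of rising coordinates. The strand of the 3 separate DNAJB9 probes is as the array files give it. Capitals mark CpG dinucleotides. No probe with another name, or with none, shared a run of 25 bases with any of the 25 probes.
DNAJB9, chr4:61879961-61880020: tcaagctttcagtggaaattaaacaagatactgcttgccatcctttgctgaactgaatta
DNAJB9, chr4:61880706-61880765: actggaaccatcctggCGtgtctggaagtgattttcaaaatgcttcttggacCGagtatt
DNAJB9, chr4:61881701-61881760: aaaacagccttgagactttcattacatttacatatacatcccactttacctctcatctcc
TXNDC5, chr23:48406893-48406999: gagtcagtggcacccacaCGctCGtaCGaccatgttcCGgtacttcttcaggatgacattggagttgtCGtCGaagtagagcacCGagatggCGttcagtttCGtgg
SERP1, first stretch, chr1:119397929-119397994: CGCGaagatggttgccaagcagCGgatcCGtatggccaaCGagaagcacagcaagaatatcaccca
SERP1, second stretch, chr1:119398510-119398604: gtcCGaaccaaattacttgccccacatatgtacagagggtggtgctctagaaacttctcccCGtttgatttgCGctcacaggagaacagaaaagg
LMAN2L, first stretch, chr11:2971427-2971494: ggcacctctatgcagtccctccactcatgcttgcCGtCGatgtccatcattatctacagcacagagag
LMAN2L, second stretch, chr11:2971558-2971642: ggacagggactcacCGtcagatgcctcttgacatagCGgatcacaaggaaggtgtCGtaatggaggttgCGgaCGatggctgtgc

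Probe classes are those of the array design, and where a probe lies against the start or the exons of its gene was not checked. A promoter class is therefore no proof of a promoter position. The 3 DNAJB9 probes were of the promoter class and carried 0, 2 and 0 CpG dinucleotides. The 107 bases of the TXNDC5-labelled stretch held 9 CpG dinucleotides and 6 overlapping CpG-island probes. SERP1 had 3 overlapping probes on its first stretch of 66 bases, of which 2 were of the CpG-island class and 1 of the promoter class, and 2 promoter probes on the second stretch of 95 bases. LMAN2L had 11 probes, 3 on the first stretch of 68 bases and 8 on the second of 85 bases, and 10 of the 11 were of the CpG-island class and 1 of the coding class. Overlapping probes share their DNA and are not replicates of a gene.

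The name TXNDC5 needs a limit. Read on the strand opposite to the one printed, the TXNDC5-labelled stretch held 33 open codons that ended in a cysteine, a residue, a cysteine and a residue, followed by a stop codon. Growth factors of the TGF-beta family, BMP6 among them, end in this way, and 391 of the 177440 probes (0.22%) held such an ending after at least 10 open codons on either strand, 1 of the 6 TXNDC5-labelled probes among them. In the buffalo RefSeq gene table (NDDB_SH_1) BMP6 is the neighbour of TXNDC5 and the 2 genes overlap. No probe carries the name BMP6, so the values below are those of probes labelled TXNDC5. No protein sequence of either gene was compared with the stretch, so whether it codes for BMP6 or for TXNDC5 was not tested. The label alone does not show that these marks belong to an isomerase gene. The other members matched the same table by name, with EIF2A beside SERP1, THAP5 beside DNAJB9, and FER1L5 and CNNM4 beside LMAN2L.

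Over all genes, none of the 6805 passed an adjusted p of 0.05 between the fertility groups for either mark (limma, Benjamini-Hochberg), the called share being 0%, while 198 genes (2.91%) for H3K4me2 and 277 (4.07%) for H3K27me3 had an unadjusted p under 0.05. The 3 subfertile bulls lay wholly apart from the 3 high-fertile bulls in 448 genes (6.58%) for H3K4me2, above them in 3.1% and below them in 3.48%, and in 583 (8.57%) for H3K27me3. Median processed signals per array were 622 to 742 for ChIP and 645 to 815 for input, and 93.91% to 99.98% of probes were well above background in the ChIP colour. Some arrays depended on base composition more than others. GC-rich probes stood above GC-poor ones by 1.31 log2 units on the SF5 H3K4me2 array and by 1.20 on the HF5 H3K4me2 array, by 0.89 on the HF5 H3K27me3 array, and by -0.36 to 0.27 on the other 9. Sperm identity could not be read from these ratios. The median H3K4me2 ratio of the 6 measured of 14 spermatid and sperm genes ran from -0.19 to 1.26 over the subfertile arrays and from -0.30 to 0.39 over the high-fertile ones, and that of the 3 measured of 9 leukocyte genes from -0.24 to 0.81 over the subfertile and from -0.18 to 0.09 over the high-fertile arrays. The 4 measured of 6 epithelial genes ran from 0.05 to 1.47 over the subfertile and from -0.16 to 0.38 over the high-fertile arrays, and the 3 measured of 8 somatic testis genes from -0.21 to 1.24 and from -0.42 to 0.20 over the same groups. Of the 6 spermatid and sperm genes, 5 had a higher H3K4me2 mean in subfertile sperm and 1 a lower one, with a median difference of 0.52. Among all genes 51.8% were higher, with a median of 0.02. An unadjusted p under 0.05 (limma) was found in 2 of the 6, beside 2.91% of all genes, and none was called. The part of these markers in the values below was not tested. Each group is 3 animals, and the p-values between the groups and against the median probe measure the spread between them. The comparison of the marks takes both arrays of a bull as independent, save where the bull is a block.

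DNAJB9 codes for an endoplasmic reticulum co-chaperone of the DnaJ family, a target of the unfolded protein response that assists the chaperone HSPA5. Its H3K4me2 ratio was 0.98 in SF1, 0.75 in SF4 and 0.22 in SF5, against -1.24 in HF2, -0.29 in HF3 and -1.23 in HF5. All 3 subfertile bulls lay above all 3 high-fertile bulls, with 0.65 ± 0.39 in subfertile and -0.92 ± 0.55 in high-fertile sperm (SD, n = 3 each), a difference of 1.57. H3K27me3 gave 0.81, 0.95 and 1.07 in SF1, SF4 and SF5, against -1.22, -0.05 and -0.70 in HF2, HF3 and HF5. The groups again did not overlap, at 0.95 ± 0.13 in subfertile and -0.66 ± 0.59 in high-fertile sperm, a difference of 1.60. Within each array the gene stood at percentile 57.4 to 94.8 of all genes in subfertile bulls and at percentile 0.9 to 44.1 in high-fertile bulls.

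The DNAJB9 difference was largest at 1 of its 3 probes, chr4:61881701-61881760. There H3K4me2 was 1.61, 1.76 and -1.30 in SF1, SF4 and SF5, against -2.41, -3.90 and -2.60 in HF2, HF3 and HF5, and H3K27me3 averaged 0.82 in subfertile and -2.25 in high-fertile sperm. The groups did not overlap at this probe in either mark. The other probes differed in the same direction, by 0.29 and 0.77 for H3K4me2 and by 0.95 and 0.79 for H3K27me3, and their groups overlapped. In the input colour of the H3K4me2 arrays this probe, relative to the array median, was at -2.78, -2.95 and -1.07 in SF1, SF4 and SF5, against -0.33, 1.29 and -2.39 in HF2, HF3 and HF5. Its H3K4me2 ChIP signal was not well above background in HF5. With the median of the probes in place of their mean the gene's difference was 0.67 for H3K4me2 and 0.88 for H3K27me3. The 20 probes of THAP5, 2004 bases further on, differed by 0.07 and 0.08.

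TXNDC5 codes for a protein disulphide isomerase with thioredoxin domains. H3K4me2 at the TXNDC5-labelled probes was -0.66 in SF1, -0.22 in SF4 and -1.59 in SF5, against 1.03 in HF2, 1.43 in HF3 and 2.85 in HF5. Every subfertile bull lay below every high-fertile bull, at -0.82 ± 0.70 in subfertile and 1.77 ± 0.96 in high-fertile sperm, a difference of -2.59. The subfertile values lay at percentile 3.9 to 34.1 of all genes on their arrays, and the high-fertile values at percentile 93.4 to 99.4. Leaving out both bulls numbered 5, whose H3K4me2 arrays depended on GC content, the difference was -1.67.

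The 6 TXNDC5-labelled probes did not move by one amount. Their H3K4me2 differences ran from -1.08 to -4.10, and 4 of the 6, those from position 48406903 onwards, had groups that did not overlap. The largest was at chr23:48406907-48406966, with -0.68, -0.54 and -3.17 in SF1, SF4 and SF5, against 1.44, 2.96 and 3.51 in HF2, HF3 and HF5. Input at this probe on the H3K4me2 arrays, relative to the array median, was -0.02, 0.18 and 0.74, against -1.74, -2.41 and 0.33. The ChIP signal was -0.61, -0.37 and -2.36, against -0.29, 0.69 and 3.85, in the same order of bulls. The high ratios of HF2 and HF3 thus came with low input, and that of HF5 with high ChIP signal. At the first probe of the stretch, which shares most of its bases with that probe, HF5 alone stood high, at 2.85, and the groups overlapped.

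H3K27me3 at the TXNDC5-labelled probes was -0.75, -1.50 and -1.32 in SF1, SF4 and SF5, against 0.42, 0.39 and -1.12 in HF2, HF3 and HF5. HF5 lay among the subfertile bulls, so the groups overlapped. The difference of -1.09 (95% interval -2.27 to 0.09) did not pass the test (limma, unadjusted p = 0.0666, adjusted p = 1.00). Here, as at SERP1 and LMAN2L below, both marks of a bull were set against its input. The H3K27me3 test is therefore not independent of the H3K4me2 values by which the gene was picked. On the slide that carried both SF1 and HF5 the sign turned, SF1 being 0.37 above HF5. The nearest other probes, 5 without a symbol at 58605 bases, differed by 0.21 for H3K4me2 and by -1.27 for H3K27me3, where the groups did not overlap.

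SERP1 codes for a small membrane protein of the translocon, also called RAMP4, that is associated with stress. Its H3K4me2 ratio was 1.54, 0.61 and 0.91 in SF1, SF4 and SF5, against -1.18, -2.45 and -0.07 in HF2, HF3 and HF5. Subfertile bulls lay above all high-fertile bulls, at 1.02 ± 0.48 in subfertile and -1.23 ± 1.19 in high-fertile sperm, a difference of 2.25. HF5 was the high-fertile bull nearest to the others, at percentile 46.4 of its array, while HF2 and HF3 were at percentile 1.1 and 0.5.

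The SERP1 difference was larger on the first stretch. There H3K4me2 averaged 1.24 ± 0.56 in subfertile and -1.89 ± 1.87 in high-fertile sperm, a difference of 3.13 with no overlap. On the second stretch it averaged 0.69 ± 0.43 in subfertile and -0.25 ± 0.86 in high-fertile sperm, and the groups overlapped. The 4 probes of EIF2A, which codes for a translation initiation factor and lies 546 bases away, differed by 0.34 for H3K4me2 and 0.33 for H3K27me3.

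The H3K27me3 values of SERP1 had not been used in its choice. The ratio was 0.15, 0.47 and 0.03 in SF1, SF4 and SF5, against -1.30, -2.08 and -0.06 in HF2, HF3 and HF5. The groups did not overlap, but SF5 and HF5 were only 0.09 apart, and the difference of 1.36 (95% interval 0.13 to 2.60) did not pass (limma, unadjusted p = 0.0346, adjusted p = 1.00). Without HF3 the difference was 0.90, without HF5 it was 1.91, and on the slide shared by SF1 and HF5 it was 0.22. On neither SERP1 stretch taken alone did the groups part in H3K27me3. In all, 273 genes (4.01%) had every subfertile bull above every high-fertile bull in H3K27me3. Both marks of a bull were set against input from that bull, whose deviations from the group mean correlated at 0.959 to 0.983 between its 2 arrays, so the H3K27me3 value is not independent of the H3K4me2 value.

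LMAN2L codes for a lectin-like membrane protein of the early secretory pathway, related to the cargo receptor LMAN2. Its H3K4me2 ratio was -0.82, -0.79 and -0.91 in SF1, SF4 and SF5, against 0.07, 0.95 and 1.41 in HF2, HF3 and HF5. Subfertile bulls sat close together and below every high-fertile bull, at -0.84 ± 0.06 in subfertile and 0.81 ± 0.68 in high-fertile sperm, a difference of -1.65. The 8 probes of the second stretch carried it, with -1.14 ± 0.18 in subfertile and 1.11 ± 0.90 in high-fertile sperm, and each of the 8 had groups that did not overlap. Its largest difference was at chr11:2971571-2971630. Input there on the H3K4me2 arrays, relative to the array median, was 0.61, -0.70 and 0.07 in SF1, SF4 and SF5, against 0.25, -2.41 and 0.23 in HF2, HF3 and HF5. The ChIP signal was -0.47, -2.16 and -1.73, against 0.50, -0.50 and 2.44, so HF3 had low input and a ChIP signal close to that of SF1. On the first stretch the means were -0.03 ± 0.38 in subfertile and 0.02 ± 0.11 in high-fertile sperm.

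H3K27me3 at LMAN2L was -0.70, -0.19 and -0.48 in SF1, SF4 and SF5, against -0.19, -0.21 and -1.58 in HF2, HF3 and HF5. The groups overlapped, and the difference of 0.20 (95% interval -0.90 to 1.30) did not pass the test (limma, unadjusted p = 0.684, adjusted p = 1.00). Without HF5 it was -0.26. The nearest other probe, 14752 bases away and without a symbol, differed by 1.06 for H3K4me2 and -0.06 for H3K27me3. The 12 probes of CNNM4, 32566 bases away, differed by -0.12 for H3K4me2 and -1.08 for H3K27me3, with overlapping groups.

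**Figure D1:**
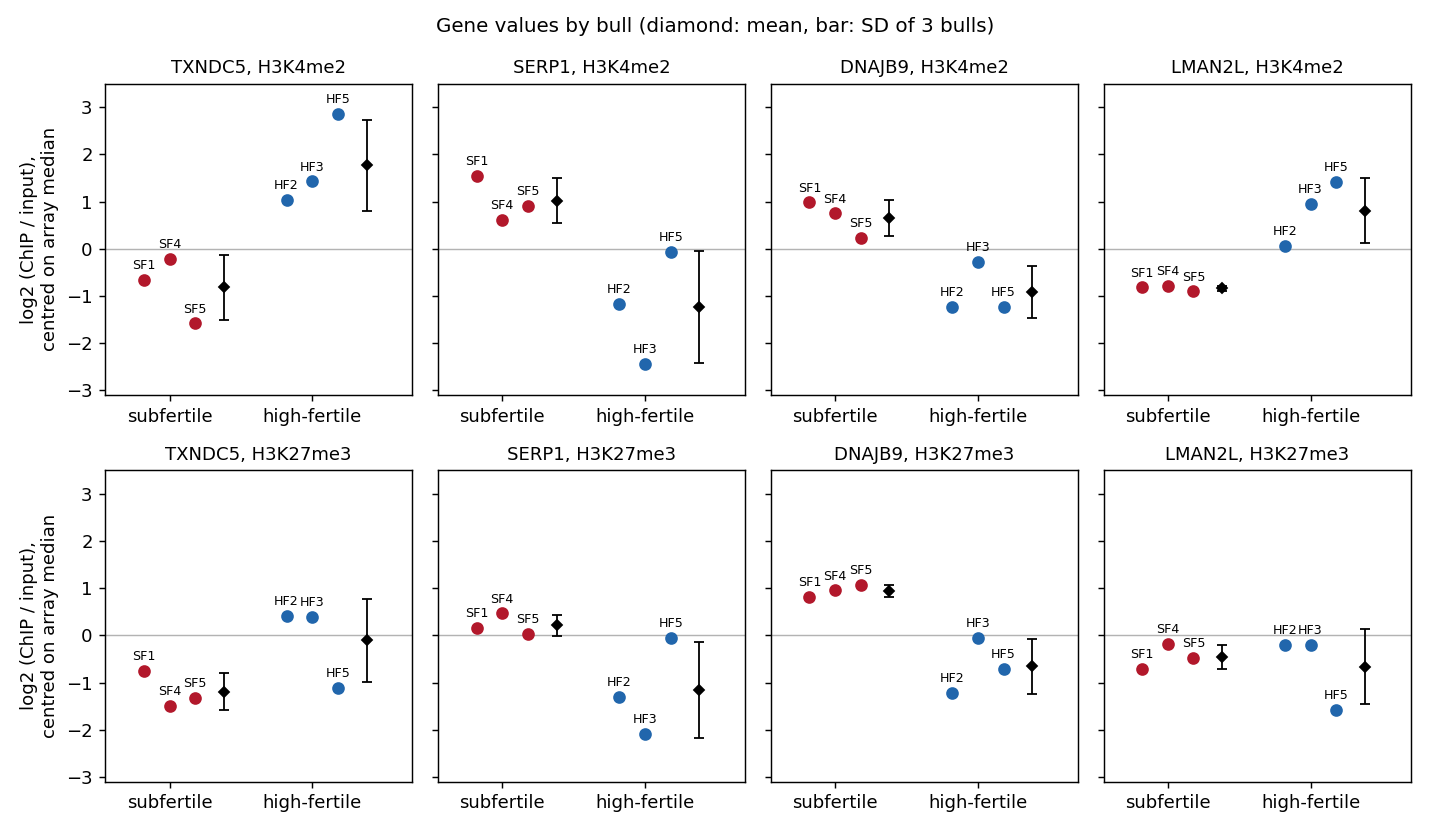
Log2 ratio of ChIP over input, centred on the array median, for each bull (points, subfertile left and high-fertile right) with the mean and SD of 3 bulls (diamond and bar). For H3K4me2 the groups do not overlap in any of the 4 genes, which is how they were picked. For H3K27me3 they do not overlap in SERP1 and DNAJB9, and overlap in TXNDC5 and LMAN2L.

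**Figure D2:**
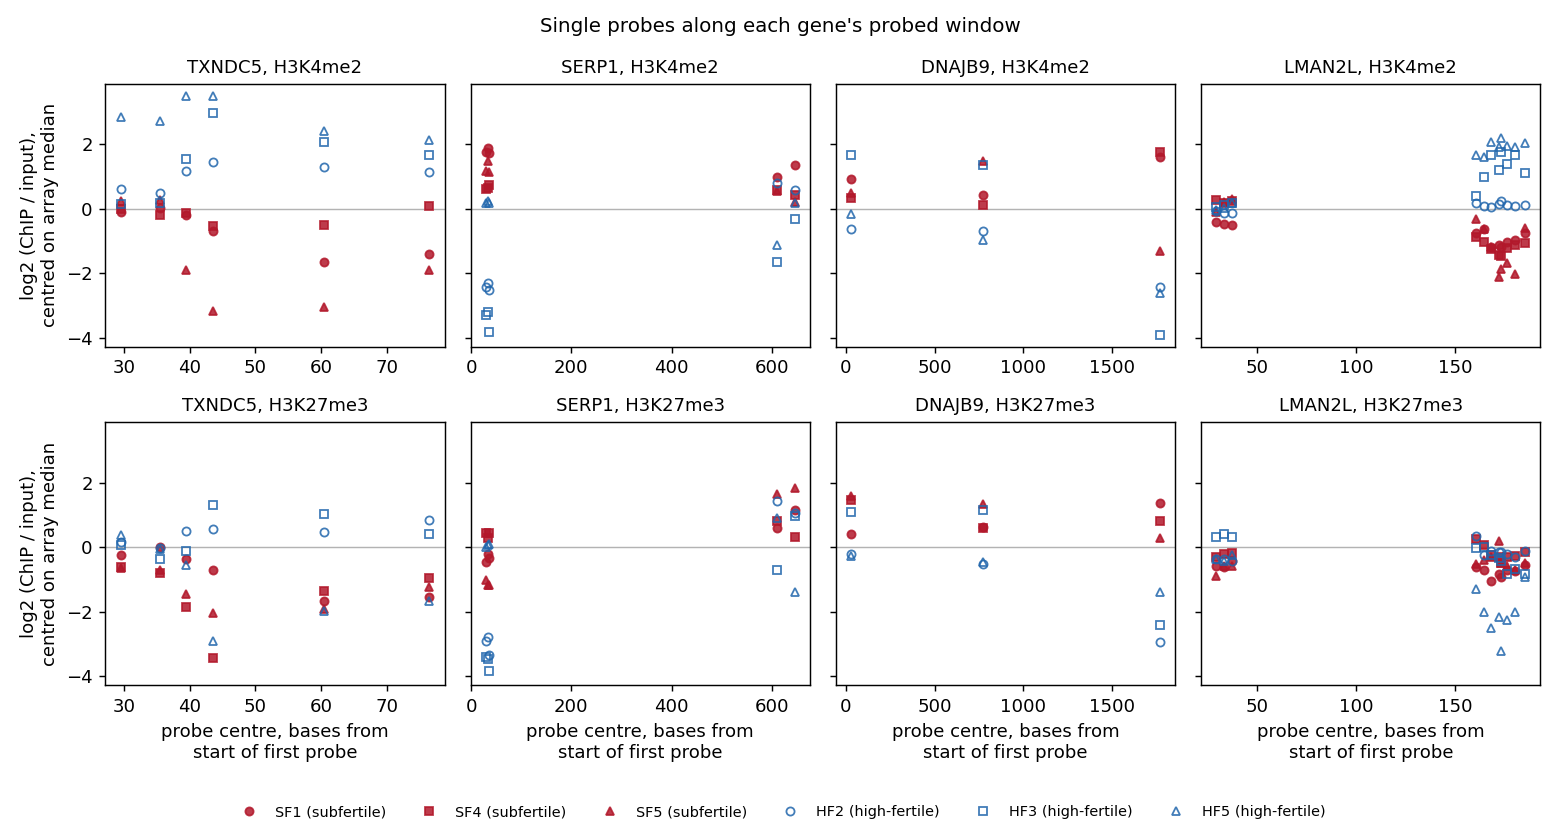
Log2 ratio of each single probe in each bull (filled red, subfertile; open blue, high-fertile) against the distance of the probe's centre in bases from the start of the gene's first probe, with H3K4me2 above and H3K27me3 below. For H3K4me2 the groups part at the first SERP1 stretch, the last DNAJB9 probe, the second LMAN2L stretch and the TXNDC5 probes from position 48406903 onwards. They lie together on the first LMAN2L stretch. For H3K27me3 they part at the last DNAJB9 probe and the first TXNDC5 probe, and overlap on both stretches of SERP1 and of LMAN2L.

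Across the 4 genes, DNAJB9 and SERP1 had groups that did not overlap in both marks and in the same direction, which 82 of the 6805 genes (1.20%) did. Both genes were chosen by their H3K4me2 difference, and DNAJB9 by H3K27me3 too, so that share is no measure of how rare they are. Of the 211 genes with every subfertile bull above every high-fertile bull in H3K4me2, 46 had the same in H3K27me3. Over the 12 arrays, TXNDC5 and LMAN2L varied together (r = 0.85), SERP1 and DNAJB9 likewise (r = 0.55), and TXNDC5 and DNAJB9 ran opposite (r = -0.69). The arrays share bulls, input DNA and the choice of genes, so these are descriptions. The gene most like TXNDC5 over the 12 arrays was CHPF (r = 0.94), followed by PRDM10 (r = 0.91), out of 6680 candidates. MYH9 (r = 0.93) and MIR431 (r = 0.91) were most like SERP1, EIF3D (r = 0.86) and FEM1A (r = 0.85) most like DNAJB9, and MLXIPL (r = 0.93) and RPS26 (r = 0.90) most like LMAN2L.

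The ratios were split into their 2 colours, each relative to its array median, to see where the group differences lay. TXNDC5 input on the H3K4me2 arrays was 1.11 ± 0.10 in subfertile and 0.17 ± 0.94 in high-fertile sperm, and SERP1 input was -0.98 ± 0.50 in subfertile and 0.07 ± 0.97 in high-fertile sperm, with overlapping groups in both genes. ChIP signal alone differed in H3K4me2 by -1.66 for TXNDC5, 1.20 for SERP1, 0.74 for DNAJB9 and -1.24 for LMAN2L, and of these only SERP1 had groups that did not overlap. For H3K27me3 the ChIP signal alone differed by -0.02 in TXNDC5 and 0.16 in SERP1, while their input differed by 1.09 and -1.18. DNAJB9 ChIP signal differed by 0.97 for H3K27me3, with groups that did not overlap. With the mean input of the 6 bulls in place of each bull's own, the H3K27me3 differences of these 2 genes were -0.06 and 0.13, and the H3K4me2 differences were -1.70 and 1.16. Under that setting DNAJB9 differed by 0.94 for H3K27me3 and 0.70 for H3K4me2, against 1.60 and 1.57 with each bull's own input, and LMAN2L by -1.28 for H3K4me2.

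**Figure D3:**
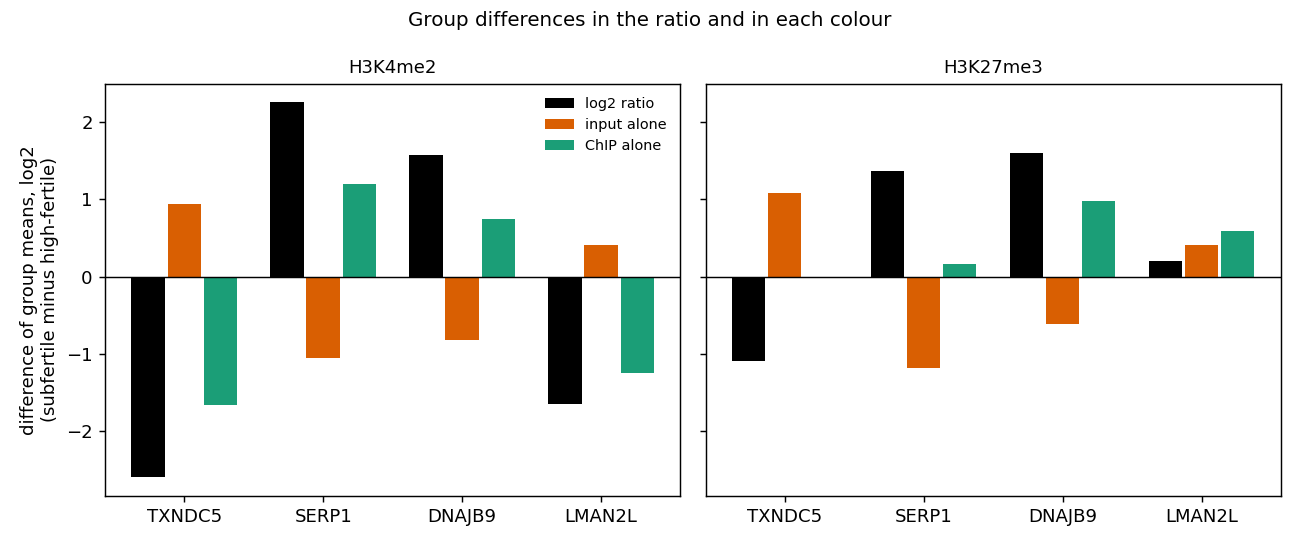
Difference of group means, subfertile minus high-fertile in log2 units, for the ratio (black), the input signal alone (orange) and the ChIP signal alone (green), each relative to the array median. Input and ratio differ in opposite directions in every case but LMAN2L H3K27me3, and for TXNDC5 and SERP1 in H3K27me3 the ChIP bars are near 0, at -0.02 and 0.16.

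Averaged over both fertility groups, no member's level of either mark differed from the median probe past the adjusted threshold. H3K4me2 averaged 0.47 at TXNDC5 (95% interval -0.22 to 1.16), -0.11 at SERP1, -0.14 at DNAJB9 and -0.01 at LMAN2L, with adjusted p of at least 0.93 (limma). H3K27me3 averaged -0.65 at TXNDC5 (unadjusted p = 0.0356, adjusted p = 0.92) and -0.56 at LMAN2L (unadjusted p = 0.0466, adjusted p = 0.92), beside -0.47 at SERP1 and 0.14 at DNAJB9. Without HF5 the TXNDC5 mean was -0.39 and the LMAN2L mean -0.33 for H3K27me3, and the TXNDC5 mean was 0.20 for H3K4me2. Without HF3 the SERP1 mean was -0.23 for H3K27me3. No gene passed over all 6805 (0%), with 302 (4.44%) under an unadjusted p of 0.05 for H3K4me2 and 360 (5.29%) for H3K27me3.

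H3K4me2 stood above H3K27me3 at the TXNDC5-labelled probes in 5 of 6 bulls. The difference between the marks was 0.09, 1.29 and -0.26 in SF1, SF4 and SF5, against 0.60, 1.03 and 3.97 in HF2, HF3 and HF5. HF5 stood far above the other bulls, and the mean of 1.12 (95% interval 0.23 to 2.01, unadjusted p = 0.0183, adjusted p = 1.00, limma) was 0.59 without HF5. The other members had mean differences of 0.36 in SERP1, -0.28 in DNAJB9 and 0.54 in LMAN2L, and none passed. The LMAN2L mean was 0.16 without HF5. None of the 6805 genes was called (0%), and 41 (0.602%) had an unadjusted p under 0.05. These fits take the 2 arrays of a bull as independent. With the bull as a block, which pairs the 2 arrays of an animal, the TXNDC5 difference of 1.12 had an unadjusted p of 0.036 (limma, adjusted p = 0.934). In that fit 260 genes had an unadjusted p under 0.05, none was called, and the lowest adjusted p was 0.934.

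Over the 6 bulls, whose 2 arrays share input DNA, Pearson's r between the marks was 0.94 at SERP1, 0.93 at DNAJB9, 0.37 at TXNDC5 and -0.49 at LMAN2L. The median over all 6805 genes was 0.61, with quartiles of 0.31 and 0.80. These values are descriptions, and DNAJB9 was chosen for a group difference in both marks. At LMAN2L, H3K4me2 was below H3K27me3 in all 3 subfertile bulls and above it in all 3 high-fertile bulls.

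**Figure D4:**
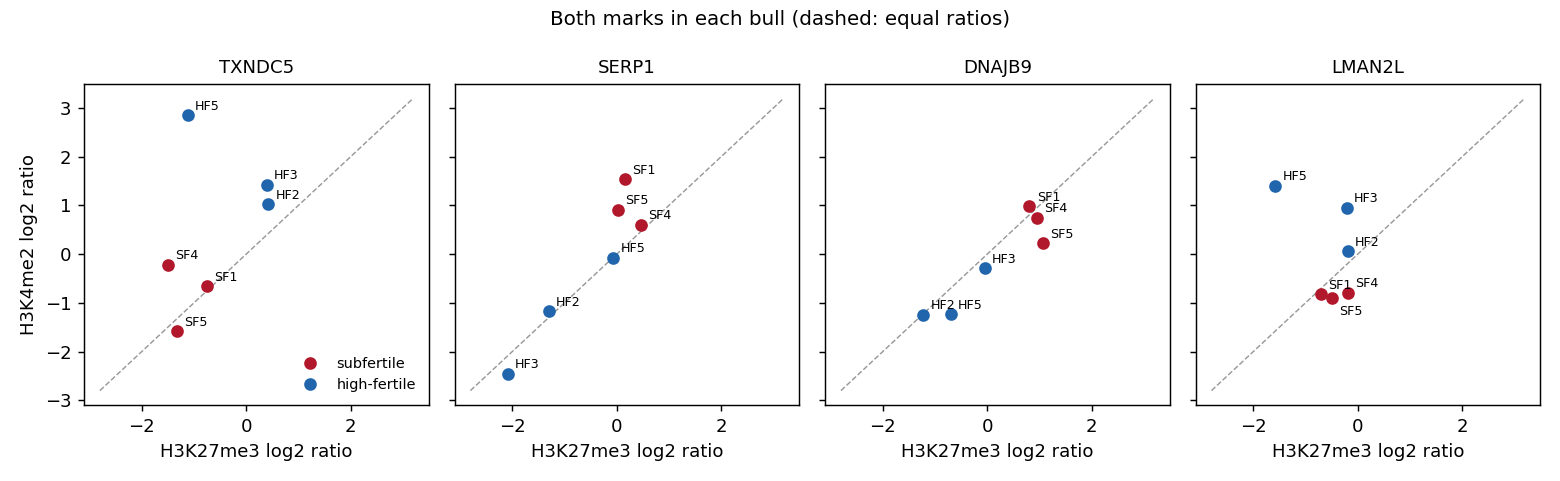
H3K4me2 against H3K27me3 log2 ratio for each bull (red, subfertile; blue, high-fertile) in the 4 genes, with the dashed line at equal ratios. SERP1 bulls lie between -0.37 and 1.39 from the line and DNAJB9 bulls between -0.85 and 0.17, while HF5 lies 3.97 above it in TXNDC5 and 2.99 above it in LMAN2L.

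Other genes of the same processes were counted without the 4 members. Of 173 listed genes of chaperoning, disulphide exchange, the unfolded protein response, degradation, the translocon and transport to the Golgi, 88 were measured, 84 of them no member. For H3K4me2, 47 of the 84 (56.0%) had a higher mean in subfertile sperm and 37 a lower one, beside 51.8% higher among all genes, with a median difference of 0.03 beside 0.02, and none was called (0%). For H3K27me3, 36 (42.9%) had a higher mean and 48 a lower one, beside 49.3% higher among all genes, with a median of -0.11 beside -0.01. The groups did not overlap in 5 of 84 genes (5.95%) for H3K4me2 and in 6 of 84 (7.14%) for H3K27me3, near the 6.58% and 8.57% of all genes.

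By process, again without the members, none of the 6 lists held a called gene in either mark. Among chaperones and co-chaperones, the process of DNAJB9, 6 of 12 measured genes were higher and 6 lower in subfertile sperm for H3K4me2, with a median of -0.16. HSPA5, the main chaperone of the compartment, averaged -0.17 ± 1.05 in subfertile and 0.89 ± 0.66 in high-fertile sperm, a difference of -1.06 that did not pass (unadjusted p = 0.122). HSP90B1 and CALR differed by -0.57 and -0.37, and DNAJB11, another DnaJ protein, by 0.63. Of 7 measured isomerases and oxidases, the process that the label TXNDC5 names, 5 were higher and 2 lower. TXNDC12 and PDIA4 differed by 0.09 and 0.16.

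The list of the unfolded protein response had 8 genes higher and 4 lower of 12 for H3K4me2, with a median of 0.22. Its sensor kinase EIF2AK3 differed by -0.57 and its transcription factor ATF4 by 0.88, with unadjusted p of 0.288 and 0.195. The degradation list had 7 higher and 9 lower of 16, and SEL1L and EDEM1 differed by 0.68 and 0.52. In the list of cargo lectins and Golgi transport 11 of 19 were higher and 8 lower, and the relatives of LMAN2L, LMAN1 and LMAN2, differed by 1.09 and 0.28 with overlapping groups.

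The translocon list, the process of SERP1, had 10 genes higher and 8 lower of 18 for H3K4me2, with a median of 0.06. SEC61G, a subunit of the translocon channel, averaged 1.33 ± 1.21 in subfertile and -1.09 ± 1.29 in high-fertile sperm, a difference of 2.42 with no overlap (unadjusted p = 0.0144, adjusted p = 1.00, limma). In H3K27me3 SEC61G differed by 0.28 with overlapping groups. SERP2, the paralog of SERP1, averaged 0.38 ± 0.64 in subfertile and 0.38 ± 0.69 in high-fertile sperm for H3K4me2. Leaving the members aside, FKBP2 (2.12) and FKBP14 (-1.31), both prolyl isomerases, also had an unadjusted p under 0.05 for H3K4me2, and these were named after their values were seen. For H3K27me3 the same held of SRPR (1.44), SEC24C (1.19), PREB (-1.46) and UFD1L (-1.01). Among all 84 listed genes that are no member, such a p was found in 2 higher and 1 lower for H3K4me2. For H3K27me3 it was found in 2 higher and 2 lower. Over all genes the shares were 2.91% and 4.07%, so these names are no result about the process. KDELR1, the receptor that returns proteins to the endoplasmic reticulum, averaged -0.04 ± 0.60 in subfertile and 0.83 ± 0.33 in high-fertile sperm for H3K27me3, with groups that did not overlap and an unadjusted p of 0.0796.

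**Figure D5:**
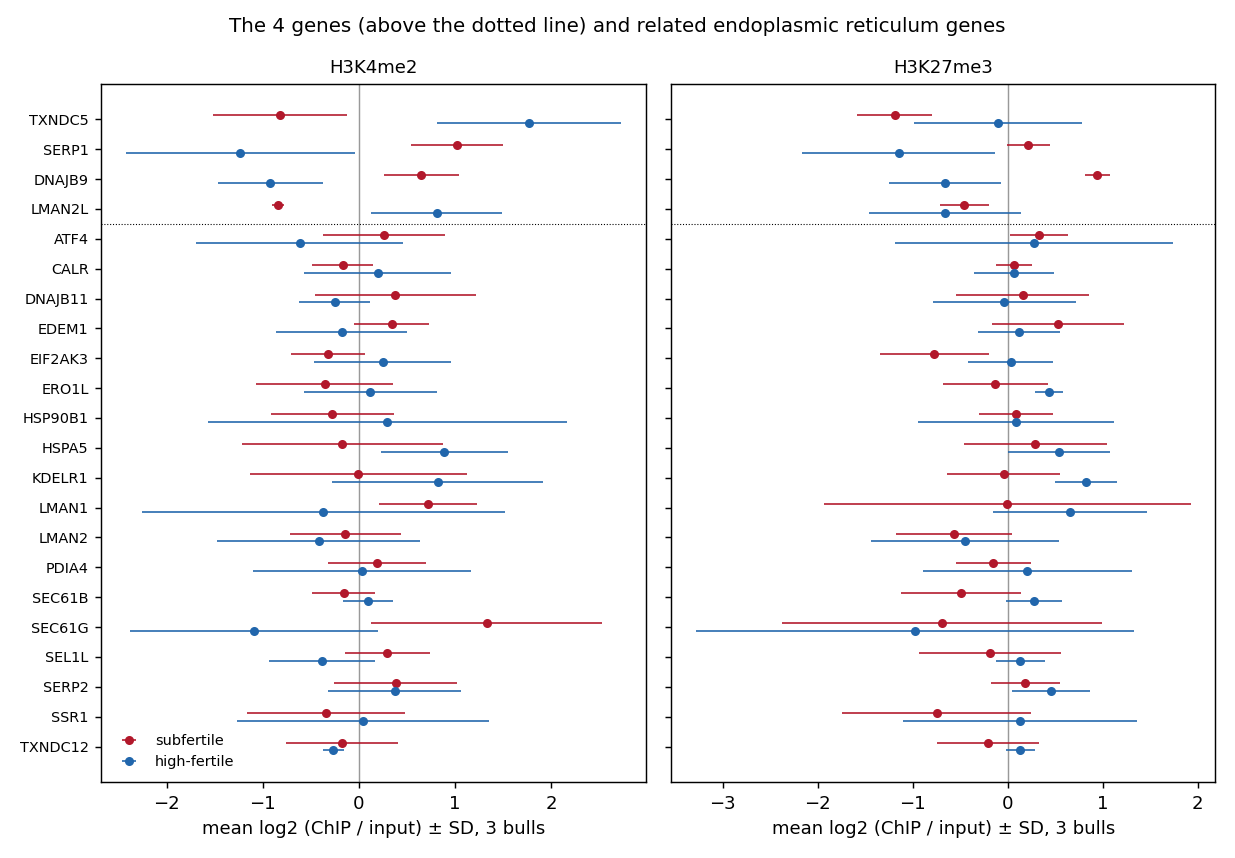
Mean log2 ratio with SD over 3 bulls for subfertile (red, upper) and high-fertile (blue, lower) sperm, for the 4 genes above the dotted line and 18 related genes below it. The single bulls, which are not drawn, overlap between the 2 groups in H3K4me2 for all related genes but SEC61G. That gene averages 1.33 in subfertile and -1.09 in high-fertile sperm, and its SD bars overlap.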

How the data were processed

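Spots were scanned with Agilent Feature Extraction (10.7 per the submitters' processing notes, 10.7.3.1 per the file headers), and the deposited intensity values were background-subtracted, detrended and dye-normalized within each array, per the file headers. The same files hold the log10 ratio of the colours, per the file headers. An alternative used the authors' deposited log2 ratios, whose correction for brightness is read from the values and not given in the sources used here. Here log2 of processed Cy5 over Cy3 was taken, outlier spots were set missing, and arrays were centred on the median of 177372 probes, those whose input passed the scanner's background test on 6 or more arrays. Genes needed at least 2 probes, which left 6805. Groups were compared with limma 3.58.1 in R 4.3.3 (two-sided, Benjamini-Hochberg at 0.05). Tested on simulated data, this fit recovered most shifts of 6 log2 units or more, far larger than any member's. It called none of a size just above those of DNAJB9 and LMAN2L, so an empty list of calls does not show that such differences are absent. The simulated noise was independent between arrays, without the tie between arrays of the same bull or slide. Replicate numbers mark bulls within a fertility group, both arrays of a number lying on 1 slide. Deviations of a bull's 2 arrays from the group mean correlated at 0.317 to 0.748 for the ratio. The 18 related genes were those of 30 set names with at least 2 probes, and the like genes the 2 of highest r. Members and lists were chosen with earlier results of these data known. The number of arrays limits the precision. Alternatives covered background, loess, probe filters and summaries, input, GC content, slide, bull and replicates.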

Additional observations from a re-analysis of the deposited data

Results flagged for a closer look

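At LMAN2L the difference of H3K4me2 minus H3K27me3 was below 0 in every subfertile bull (SF1 -0.12, SF4 -0.61, SF5 -0.42) and above 0 in every high-fertile bull (HF2 0.26, HF3 1.16, HF5 2.99). The subfertile mean of -0.38 lay -1.85 from the high-fertile mean of 1.47. This difference was not tested, because LMAN2L had been picked for its H3K4me2 difference. An opposite sign in the groups was seen in 219 of 6805 genes (3.22%).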

How the results depend on the processing

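No gene was called in any comparison under any alternative run, and the unadjusted counts with 1 bull left out ran from 199 to 243 for H3K4me2 between the groups, from 242 to 391 for H3K27me3 and from 22 to 68 between the marks. With the bull as a replicate block the comparison of marks had 260 genes at an unadjusted p under 0.05, and it changed no call. With the slide as a random block on all 12 arrays, 555 genes for H3K4me2 and 614 for H3K27me3 had such a p, with lowest adjusted p of 0.475 and 0.183. With the mean input of the bulls the mean against 0 had 709 genes for H3K4me2 and 758 for H3K27me3 at such a p. The H3K4me2 group difference kept its sign in all alternatives, between -3.51 and -1.67 for TXNDC5, 1.16 and 2.94 for SERP1, 0.67 and 2.22 for DNAJB9, and -2.23 and -1.26 for LMAN2L. Only 1 DNAJB9 probe passed the filter for both colours on all arrays, so that setting gave it no value. Signs turned in these values, the cause of which was not tested. The mean H3K4me2 ratio of SERP1 was 0.11 with loess, 0.12 in the deposited table and 0.20 without HF3. That of DNAJB9 was 0.25 with the median of probes, 0.18 against probes of like GC and 0.050 without both bulls numbered 5, and that of LMAN2L was 0.11 with the median of probes, 0.17 without HF2 and 0.0014 without SF5. The mean H3K27me3 ratio of DNAJB9 was -0.093 with normexp and -0.0081 without HF3. The H3K27me3 group difference of LMAN2L was -0.26 without HF5 and -0.25 without both bulls numbered 5, and that of TXNDC5 was 0.37 within the shared slide. The GC setting and the setting without both bulls numbered 5 were chosen after seeing the data. With 1 bull left out, the mean against 0 ran for H3K4me2 from -0.40 to 0.20 in SERP1, from 0.20 to 0.66 in TXNDC5 and from -0.16 to 0.17 in LMAN2L, and for H3K27me3 from -0.01 to 0.29 in DNAJB9, from -0.78 to -0.39 in TXNDC5, from -0.74 to -0.23 in SERP1 and from -0.68 to -0.33 in LMAN2L. The H3K27me3 group difference of LMAN2L then ran from -0.26 to 0.44.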
